A study of Mus musculus with 11 samples.

Results

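Of the 11 samples in the series, 6 are described here: hematopoietic stem cells (HSCs) sorted from the spleen (3 samples) and from the bone marrow (3 samples), all titled as treated with phenylhydrazine (PHZ). They were chosen by their titles, PHZ_SPL_HSC and PHZ_BM_HSC, each with replicates 1 to 3. All 6 came from wild-type C57BL/6 mice with no engineered allele, which the study's methods describe as young adults of both sexes, and no sample's age is given. PHZ was given intraperitoneally at 60 mg/kg on 2 days, and HSCs were sorted 3 days after the last dose. The remaining 5 samples, titled WT, are HSCs from the spleen (2 samples) and the marrow (3 samples) of mice without PHZ and are used only as a background. The treatment tag of the records gives PBS for every marrow sample and PHZ for every splenic sample and so follows tissue, not title. The study's own description of its splenic samples follows the titles. If the tag were right, all marrow samples would be untreated and all splenic samples treated, every comparison of tissues below would also be one of treatments, and no change with PHZ could be computed within a tissue. HSCs were gated in the study as lineage-negative Sca-1+ c-kit+ cells with CD150 and little or no CD48, and since the files hold a single locus, the purity of the sort could not be checked here.

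PHZ lyses red blood cells and is a standard model of hemolytic anemia. In mice the spleen is then a major site of stress erythropoiesis, while the marrow is the main home of HSCs at rest. Tfrc encodes the transferrin receptor CD71, which brings transferrin-bound iron into the cell and is abundant on erythroid precursors, whose heme synthesis needs iron. Methylation of cytosine in CpG dinucleotides is copied at each division by DNMT1 and can be lost passively or after oxidation by TET enzymes, which need iron and α-ketoglutarate. The question addressed by the comparison is whether HSCs of the spleen and of the marrow differ at this locus in anemic mice.

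The assay covered 5 CpGs of mouse chromosome 16 (GRCm38, also named mm10), at 32608101, 32608103, 32608140, 32608207 and 32608209, called CpG 1 to CpG 5 in that order. They lie 819, 817, 780, 713 and 711 bp upstream of the GENCODE start of Tfrc (ENSMUSG00000022797.16, forward strand, 32608920 to 32632794). The RefSeq start is 24 bp nearer. No GENCODE gene overlaps the sites, which are therefore intergenic. A sixth listed CpG, at 32608314, had 0 reads in every sample. The sequence below, from the RefSeq copy of GRCm38, is shown because it holds all 5 covered sites, whose CG letters are in capitals. It is the forward strand of chr16:32608071-32608240.

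Region of the 5 CpGs: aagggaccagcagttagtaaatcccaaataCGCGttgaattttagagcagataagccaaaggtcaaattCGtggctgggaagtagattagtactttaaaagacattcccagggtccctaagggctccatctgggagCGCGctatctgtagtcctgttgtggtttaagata

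CpG 1 and CpG 2 form 1 CGCG run, CpG 4 and CpG 5 form another, and CpG 3 stands alone between them, 37 bp after CpG 2 and 67 bp before CpG 4. A CGCG on either strand occurs in 1.68% of 558931 windows of the same 170 bp length tiled along chromosome 16. The region is poor in CpGs beside the promoter itself, with 2.94 CpGs per 100 bp against 10 per 100 bp in the 300 bp around the RefSeq start (32608646 to 32608945, 30 CpGs). The observed-to-expected CpG ratio was 0.604 in the region and 0.94 at the promoter.

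Bisulfite turns unmethylated cytosine into uracil, read as T after PCR, and leaves methylated cytosine as C. The 3 windows below show what the sequencer reads on the forward strand when the named sites are methylated or unmethylated, with the informative letters in capitals.

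CpG 1 and CpG 2, methylated: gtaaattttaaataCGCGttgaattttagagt
CpG 1 and CpG 2, unmethylated: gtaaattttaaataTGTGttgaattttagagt
CpG 3, methylated: ttaaaggttaaattCGtggttgggaagtag
CpG 3, unmethylated: ttaaaggttaaattTGtggttgggaagtag
CpG 4 and CpG 5, methylated: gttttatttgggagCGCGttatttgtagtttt
CpG 4 and CpG 5, unmethylated: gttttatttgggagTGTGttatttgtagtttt

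Sites bound by erythroid GATA factors include AGATAA and TGATAA, the only forms searched for here. The related form AGATAG was not searched for, and on the reverse strand it directly follows CpG 5, where the forward strand reads ctatct. On either strand the region holds 1 AGATAA, at 32608119 to 32608124, and no TGATAA. Of the same-length windows of the chromosome, 11.9% hold AGATAA and 11.4% hold TGATAA. The match ends 15 bases before CpG 3, and both are in capitals in the next window. No binding was measured in these data.

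AGATAA and CpG 3: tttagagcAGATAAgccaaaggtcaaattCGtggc

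Methylation is given as the percentage of forward-strand reads called methylated, since the reverse-strand rows carried no signal. On the reverse strand at most 0.452% of reads were unmethylated at any CpG of the 6 samples, a value reached at CpG 3 of marrow replicate 3. Forward-strand reads summed over the 5 CpGs were 12855 to 14889 in the splenic samples and 9184 to 13836 in the marrow samples, with 1525 to 3458 reads at a single CpG. The 95% Wilson intervals of single percentages were 0.543 to 4.15 points wide. These intervals cover counting error only, because reads of a PCR product that carry no molecular identifier may copy the same molecule. CpG 3 was read most in all 6 samples, 1.38 to 1.46 times as often as CpG 1, with overlapping ratios in the tissues. Any 2 samples of a tissue differed by more than the counting noise of reads (summed chi-square of at least 372.3 on 5 degrees of freedom), so no file repeats another, and all 6 were counted as labeled. Repeat amplifications of 1 mouse could differ as much, which was not tested. Unless another test is named, a p-value comes from an exact permutation test that exchanged mice between the tissues, two-sided unless stated. Measures given with no p-value were compared by their values only. With 3 against 3 such an exact permutation test cannot go below p = 0.1, so no difference within these 6 samples could pass 0.05. The records do not state that samples came from separate mice, nor whether splenic and marrow samples came from the same mice. If they did, these tests ignore that pairing. Each sample is called a mouse in this text. The study counts its replicates as animals.

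CpG 3, the site at 32608140, was the least methylated of the 5 CpGs in all 6 mice. In the marrow it was methylated in 65.4% of reads in replicate 1, 72.1% in replicate 2 and 52.1% in replicate 3. In the spleen the values were 58.8%, 67.9% and 54.9% in the same order. The groups overlapped, and both the highest and the lowest of the 6 values were from the marrow. The means were 63.2% ± 10.2 (SD, n = 3) in the marrow and 60.5% ± 6.69 (SD, n = 3) in the spleen, a difference of -2.65 percentage points for spleen minus marrow (exact permutation test, p = 0.8, with an adjusted p of 0.9 by Benjamini-Hochberg across the 5 sites). The exact 90% interval of the difference, the highest level that 3 against 3 allow, ran from -17.3 to 15.8 points. Without marrow replicate 2 the difference was 1.82 points, without splenic replicate 3 it was 0.187, and without marrow replicate 3 it was -8.20.

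**Figure D1:**
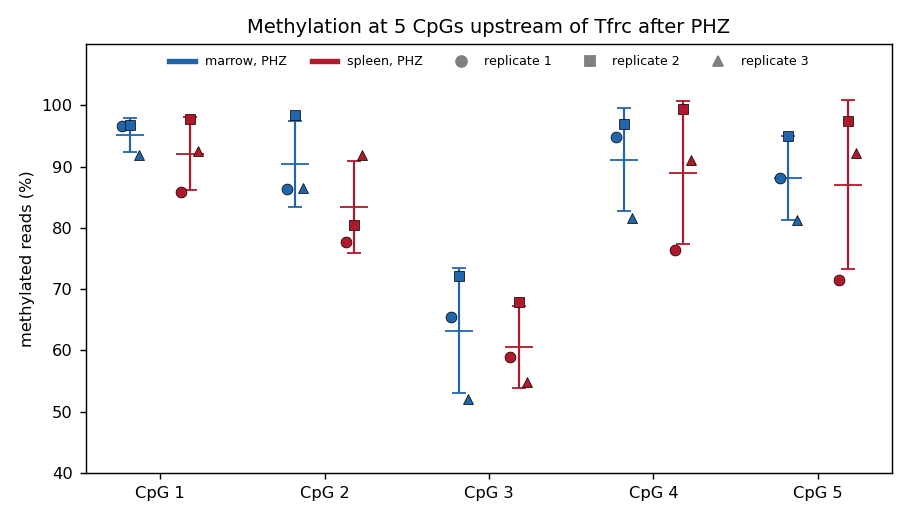
Percentage of methylated forward-strand reads (vertical axis, from 40%) at CpG 1 to CpG 5 in HSCs of PHZ-treated mice, with 1 point per mouse, marrow in blue and spleen in red, and bars for the mean ± SD of 3 mice. At CpG 3 the marrow points span 52.1% to 72.1% and the splenic points 54.9% to 67.9%, and the tissues overlap at every CpG.

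CpG 2 showed the widest gap between the tissues. The marrow had 86.3%, 98.4% and 86.5% in replicates 1, 2 and 3, and the spleen 77.7%, 80.5% and 92.0%. Splenic replicates 1 and 2 were below every marrow sample, whereas splenic replicate 3 was above 2 of them. The means were 90.4% ± 6.95 in the marrow and 83.4% ± 7.54 in the spleen (SD, n = 3 each), a difference of -7.02 points with an exact 90% interval from -20.7 to 5.62 (exact permutation test, p = 0.3, adjusted p = 0.9). The difference ranged from -11.3 points without splenic replicate 3 to -3.00 without marrow replicate 2. It is the only one of the 5 sites at which no left-out mouse turned the direction.

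CpG 1, the neighbor of CpG 2 in the same CGCG, was highly methylated in both tissues. Its values were 96.6%, 96.8% and 91.9% in the marrow and 85.9%, 97.8% and 92.5% in the spleen. Splenic replicate 1 was below the rest, and the highest value was also splenic. The difference of the means, 95.1% ± 2.77 in the marrow and 92.1% ± 5.97 in the spleen (SD, n = 3 each), was -3.06 points, with an interval from -10.9 to 5.89 (exact permutation test, p = 0.7, adjusted p = 0.9). It was 0.0156 points without splenic replicate 1, -5.95 without splenic replicate 2, and -4.66 without marrow replicate 3.

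At CpG 4 the marrow had 94.9%, 97.0% and 81.5% and the spleen 76.4%, 99.5% and 91.1%. At CpG 5 the marrow had 88.2%, 95.0% and 81.2% and the spleen 71.4%, 97.5% and 92.2%. At both sites the lowest and the highest of the 6 values were splenic, from replicates 1 and 2, with the marrow samples between them. The means at CpG 4 were 91.1% ± 8.38 in the marrow and 88.97% ± 11.7 in the spleen (SD, n = 3 each), and the difference was -2.17 points, with an interval from -20.6 to 17.9 (exact permutation test, p = 0.7, adjusted p = 0.9). At CpG 5 they were 88.1% ± 6.88 and 87.1% ± 13.8 (SD, n = 3 each), a difference of -1.08 points with an interval from -23.5 to 16.3 (exact permutation test, p = 0.9, adjusted p = 0.9). Without splenic replicate 1 the differences became 4.12 points at CpG 4 and 6.73 at CpG 5. They were 0.751 and 2.34 without marrow replicate 2. With percentages averaged as log odds they were 1.52 and 1.84. Without splenic replicate 2 they were -7.42 and -6.31.

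**Figure D2:**
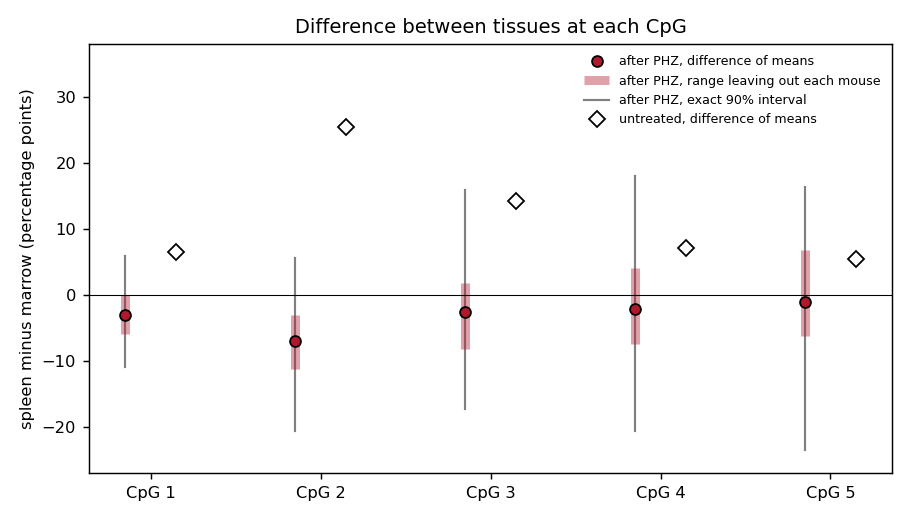
Spleen minus marrow in percentage points at each CpG: the difference of means after PHZ (red points), its range when each of the 6 mice is left out (pale bars), its exact 90% interval (grey lines), and the difference of means in untreated mice (open diamonds). Every grey line crosses 0, while the red points lie between -7.02 and -1.08 and the diamonds between 5.36 and 25.5.

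Averaged over the 5 CpGs, each mouse gave 1 level for the locus. This level was 86.3%, 91.9% and 78.6% in marrow replicates 1, 2 and 3, and 74.1%, 88.6% and 84.5% in the splenic ones. The lowest mouse was splenic and the highest was from the marrow, with the other 4 interleaved. The means were 85.6% ± 6.64 in the marrow and 82.4% ± 7.51 in the spleen (SD, n = 3 each), a difference of -3.20 points with an interval from -17.8 to 9.99 (exact permutation test, p = 0.6). It was 0.975 points without splenic replicate 1 and -6.67 without marrow replicate 3.

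Expressed as unmethylated sites, the sum of the unmethylated shares gives the mean number of unmethylated CpGs per 5. It was 0.686, 0.406 and 1.07 in the marrow and 1.30, 0.568 and 0.774 in the spleen. CpG 3 alone made up 50.5%, 68.6% and 44.9% of that number in the marrow and 31.7%, 56.5% and 58.3% in the spleen. The tissues overlapped in both measures. Splenic replicate 1 had the most unmethylated sites and the smallest share at CpG 3, its other unmethylated sites being spread over the other 4 CpGs.

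**Figure D3:**
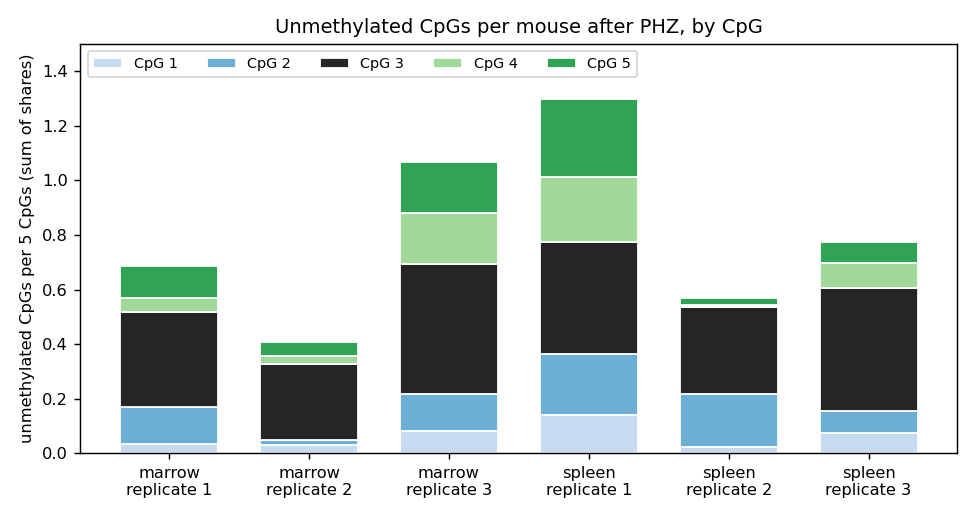
Sum of the unmethylated shares of the 5 CpGs in each PHZ-treated mouse (bars from 0, stacked by CpG, CpG 3 in black). The bars run from 0.406 in marrow replicate 2 to 1.30 in splenic replicate 1, and the black segment is the largest of its bar in all 6 mice.

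The profile along the locus had its minimum at CpG 3 in each mouse. CpG 3 minus the mean of the other 4 CpGs was -26.1, -24.7 and -33.2 points in marrow replicates 1, 2 and 3, and -19.0, -25.9 and -37.1 points in the splenic ones. The splenic values bracketed those of the marrow. The mean contrast was -28.0 ± 4.56 points in the marrow and -27.3 ± 9.10 in the spleen (SD, n = 3 each), and the tissues differed in it by 0.682 points, with an interval from -12.4 to 14.2 (exact permutation test, p = 0.9). Its sign turned with the mouse left out, and the difference ranged from -3.47 points without splenic replicate 1 to 5.55 without splenic replicate 3. After each mouse's own mean over the 5 CpGs was subtracted, the mean marrow profile was 9.53, 4.80, -22.4, 5.54 and 2.54 points from CpG 1 to CpG 5. The splenic profile was 9.66, 0.984, -21.9, 6.57 and 4.65. The largest gap between these mean profiles was at CpG 2, with -3.82 points. The distance between the mean profiles over the 5 CpGs, the root of the summed squares, was 4.52 points (exact permutation test, upper tail only, p = 0.9).

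**Figure D4:**
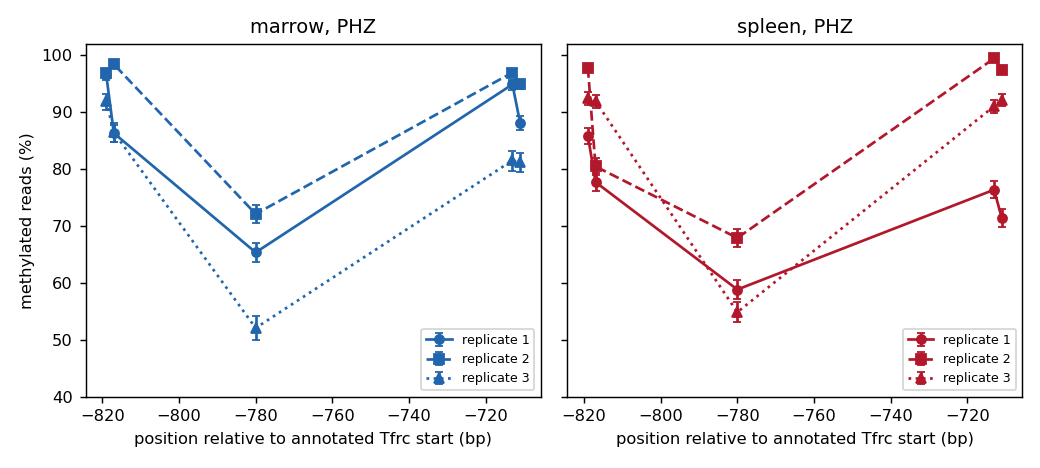
Methylated reads in percent (vertical axis, from 40%) against position upstream of the annotated Tfrc start in bp, 1 line per PHZ-treated mouse, marrow on the left and spleen on the right, with 95% Wilson intervals as error bars. In both panels the 3 lines dip to their minimum at CpG 3, 780 bp upstream, and the splenic lines cross each other more than the marrow lines do.

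Sites 2 bp apart did not always share a level. CpG 2 was below CpG 1 in 5 of the 6 mice. CpG 1 minus CpG 2 was 10.3, -1.59 and 5.48 points in marrow replicates 1, 2 and 3. It was 8.17, 17.3 and 0.508 points in splenic replicates 1, 2 and 3. Within splenic replicate 2 the gap was thus between 97.8% (95% interval 97.2% to 98.3%) at CpG 1 and 80.5% (78.9% to 81.9%) at CpG 2. In the other CGCG, CpG 5 was below CpG 4 in 5 of the 6 mice, by 6.71, 2.00 and 0.304 points in the marrow and by 4.95 and 1.96 in splenic replicates 1 and 2. In splenic replicate 3 CpG 4 minus CpG 5 was -1.17 points. The files give each CpG on its own, so it is not known which states occurred together on a molecule.

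Mice of a tissue differed by more than the counting error of reads, while the number of template molecules behind the reads was not measured. The SD between mice was 2.77, 6.95, 10.2, 8.38 and 6.88 points from CpG 1 to CpG 5 in the marrow and 5.97, 7.54, 6.69, 11.7 and 13.8 in the spleen. The counting SD at a single CpG, taken as the root mean square over the 3 mice of a tissue, was at most 0.916 points. The SD between mice exceeded it 5.44-fold to 13.9-fold in the marrow and 7.93-fold to 23.9-fold in the spleen. The SD was larger in the spleen at CpG 1, CpG 2, CpG 4 and CpG 5, with ratios of 2.16, 1.09, 1.39 and 2.00, and smaller at CpG 3, with a ratio of 0.656. Leaving out 1 mouse turned this order at CpG 2, CpG 3, CpG 4 and CpG 5. Spleen minus marrow in SD was -2.44 at CpG 4 and -3.15 at CpG 5 without splenic replicate 1, -5.01 at CpG 2 without splenic replicate 3, and 1.90 at CpG 3 without marrow replicate 3. For the mean of the 5 CpGs the SDs were 7.51 and 6.64, a difference of 0.876 points (exact permutation test of the difference of SDs, p = 0.9). This difference was -3.72 without splenic replicate 1, -1.84 without marrow replicate 1 and 3.67 without splenic replicate 3. In the marrow replicate 2 was the highest mouse at all 5 CpGs, and replicate 3 the lowest at 4. In the spleen replicate 1 was the lowest at 4 CpGs and replicate 2 the highest at 4. Depth did not order the mice the same way in the tissues. The least methylated marrow sample, replicate 3, had the fewest reads of its tissue (9184), and the least methylated splenic sample, replicate 1, had the most (14889).

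**Figure D5:**
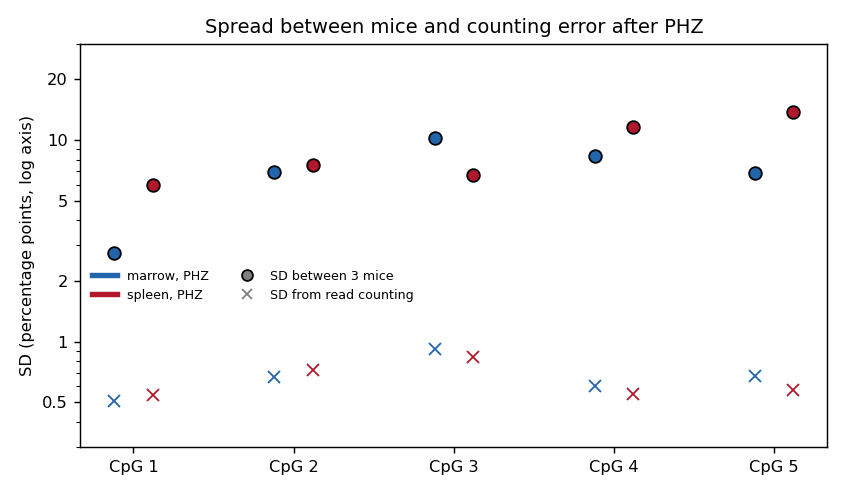
SD between 3 mice (circles) and SD expected from read counting (crosses) in percentage points, on a log axis, at each CpG in marrow (blue) and spleen (red) after PHZ. All circles lie between 2.77 and 13.8 and all crosses below 0.916 or at it, and the red circle is the lower one only at CpG 3.

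Pairs of mice were also compared by the mean absolute difference over the 5 CpGs. It was 5.59 to 13.2 points (median 7.68) in the 3 pairs within the marrow, 8.71 to 14.6 (median 12.0) in the 3 pairs within the spleen, and 4.70 to 17.8 (median 7.29) in the 9 pairs between tissues. Pairs from different tissues were thus not further apart, by the median, than pairs within one. Each mouse's own mean was also subtracted first, so that only the shape of the profile remained. The distances were then 3.55 to 4.55 points (median 3.83) within the marrow and 6.24 to 7.997 (median 7.33) within the spleen. Between tissues they were 3.52 to 8.02 (median 4.54). The mean distance was 3.98 points within the marrow and 7.19 within the spleen, a difference of 3.21 points (exact permutation test, p = 0.1, the smallest p possible). This measure was chosen after the values had been seen. The difference was 2.26 without splenic replicate 1 and 4.02 without splenic replicate 3.

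The same comparison of means without PHZ had the opposite sign at each site, though after PHZ only CpG 2 kept its sign with every left-out mouse. Spleen minus marrow in untreated mice was 6.54, 25.5, 14.2, 7.15 and 5.36 points from CpG 1 to CpG 5 (2 against 3 mice), against -3.06, -7.02, -2.65, -2.17 and -1.08 after PHZ, of which those at CpG 4 and CpG 5 turned positive with log odds. The change between these differences was set against 200 arrangements that exchange tissues within each treatment. It was -9.61 points at CpG 1 (exact permutation test, p = 0.09), -32.5 at CpG 2 (p = 0.035, exact), -16.9 at CpG 3 (p = 0.2, exact), -9.32 at CpG 4 (p = 0.29, exact) and -6.44 at CpG 5 (p = 0.525, exact). The adjusted p over the 5 CpGs ranged from 0.175 to 0.525, so no site passed after adjustment. Exchanging tissues in this way assumes no difference between tissues in either treatment. A difference in untreated mice alone can therefore lower p, and these tests cannot tell whether the difference changed with PHZ. At CpG 2 the unadjusted p stayed under 0.05 only without PHZ-treated marrow replicate 1 or 3 or splenic replicate 3, and it was 0.05 to 0.1625 without any other mouse (exact permutation test). Untreated marrow replicate 3 held 86 forward-strand reads over the 5 CpGs. Without it the changes at CpG 2 and CpG 3 were -36.2 and -21.0 points. CpG 3 was the lowest site in 6 of 6 PHZ-treated and in 3 of 5 untreated samples, the exceptions being untreated marrow replicates 2 and 3, in which CpG 2 was lower by 3.998 and 2.78 points.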

How the data were processed

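Per the study's methods, sorted HSCs were bisulfite-converted, a Tfrc region was amplified by PCR, and the products were made into libraries with a transposase kit, sequenced and analyzed with Bismark. The submitters' notes name the mm10 build. The deposited files give, for each strand of each CpG, the methylated fraction and the count of covering reads, 1 file per sample and not pooled. The step that wrote this layout is not given in the sources used here, and the ends of the PCR product were not placed. Methylated reads were recovered as fraction times count and were within 0.00164 of a whole number. File positions are relative, so the sites were placed by their spacing, which fits 1 place among 755291 CpGs of chromosome 16. A second deposited file per sample, with both strands summed, was not used, and the summed alternative was made from the per-strand rows.

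Forward-strand rows with at least 10 reads were used, and all 5 CpGs with reads are named, whatever their value. Group means were compared by exact permutation tests over mice, and the 90% interval spans the 9 pairwise differences. Wilson intervals are at 95%. Of the tests, only that of a difference of means, 3 against 3 at the level and depth of CpG 3, was checked on simulated data. Scripts ran under Python 3.11.15, with SciPy 1.17.1 on NumPy 2.4.6 for the statistics and figures from matplotlib 3.10.9. Alternatives covered strand, averaging, coverage minimum, left-out mice, a replicate block and a logistic model. The comparison and its measures were chosen with earlier results of these data known.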

Additional observations from a re-analysis of the deposited data

Results flagged for a closer look

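The difference between spleen and marrow HSCs changed with PHZ at CpG 2 (32608103) by -32.5 percentage points, from 25.5 without PHZ to -7.02 after it. It is listed because the exact permutation test that exchanges tissues within each treatment gave p = 0.035 (two-sided, 200 arrangements), with p = 0.175 after adjustment over the 5 CpGs. That test assumes no difference between tissues in either treatment. A difference in untreated mice alone can lower its p, so it cannot tell whether the difference changed with PHZ. Untreated marrow had 72.1%, 50.2% and 72.2% at this site, the last from 18 reads. In replicate 2 of untreated marrow the record for this CpG carries a context mark that the others lack, whose meaning is not given in the sources used here. The part of depth and of that mark in the change was not tested.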

How the results depend on the processing

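With log odds the difference between tissues was 1.52 points at CpG 4, 1.84 at CpG 5 and -1.12 for CpG 3 minus the other CpGs. The last was also -1.91 with a minimum of 2000 reads, which removes marrow replicate 3 at every CpG but CpG 3. Leaving out each mouse gave -5.95 to 0.0156 at CpG 1, -11.3 to -3.00 at CpG 2, -8.20 to 1.82 at CpG 3, -7.42 to 4.12 at CpG 4, -6.31 to 6.73 at CpG 5 and -6.67 to 0.975 for the mean of 5. It gave -3.72 to 3.67 for the SD of that mean and -3.47 to 5.55 for CpG 3 minus the others. The change with PHZ at CpG 2 was -33.1 with pooled reads (exact p = 0.085), -36.2 with a minimum of 1000 reads (exact p = 0.05) and -27.2 with 2000 (exact p = 0.1). Leaving out each mouse moved it from -38.1 to -25.2 (exact p from 0.01 to 0.1625), the change at CpG 1 from -12.5 to -6.53 and that at CpG 5 from -11.7 to 1.37. Without PHZ splenic replicate 2 the change at CpG 1 had exact p = 0.03, unadjusted. The cause of these shifts was not tested.

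The difference of SDs, without a test, ranged over left-out mice from -5.01 to 7.46 at CpG 2, -7.49 to 1.90 at CpG 3, -2.44 to 10.2 at CpG 4 and -3.15 to 11.6 at CpG 5, and was -1.01 at CpG 2 with a minimum of 2000 reads.

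Of 240 alternatives, 203 kept direction and, where there was a test, side of the threshold, and 25 changed direction. Exact tests of spleen against marrow after PHZ cannot go below p = 0.1, so they could not change side of 0.05. The distance between mean profiles is never negative, so its 10 alternatives could not change direction. Of the 80 alternatives for the change with PHZ, 67 kept direction and side, and 1 changed direction. Another 11 lost and 1 gained an unadjusted p under 0.05. Summing strands shrank the differences to between -3.59 and -0.502 points, since reverse-strand rows read near 100%. The logistic model gave p from 0.270 to 0.799. Same-numbered samples had deviations correlated at -0.144, -0.166 and 0.617 over 5 CpGs, and differently numbered samples at -0.717 to 0.845. With ranges that overlap, these correlations cannot tell whether equal numbers mark the same mouse, which was not tested. The main tests did not take the numbers as pairs. With the replicate block the differences were the same, -3.06, -7.02, -2.65, -2.17 and -1.08 from CpG 1 to CpG 5, -3.20 for the mean and 0.682 for CpG 3 minus the others, with exact sign-flip p from 0.5 to 1. With 3 mice a tissue and an unmeasured number of template molecules, small differences cannot be resolved.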
